A study of Mus musculus with 48 samples.

Results

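The question was whether prenatal exposure to dihydrotestosterone (DHT), a potent androgen that is not a substrate of aromatase, altered how gene expression of the preoptic area changed between the young and the adult stage in female mice. The measure was the treatment-by-stage interaction in the supernatant libraries: the log2 difference of adult DHT over adult vehicle minus that of young DHT over young vehicle, which equals the adult-over-young change in DHT mice minus that in vehicle mice. It drew on 23 of the 48 libraries of the series: 6 adult DHT, 5 adult vehicle, 6 young DHT and 6 young vehicle. A negative interaction means that the adult-over-young change was less positive, or more negative, in DHT mice than in vehicle mice.

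All animals in the 4 groups were offspring of homozygous GnRH-Cre males and homozygous floxed-stop L10a-GFP females, so every group, controls included, carried a GFP-tagged ribosomal protein in neurons that make gonadotropin-releasing hormone (GnRH). The supernatant is the RNA of the preoptic punch that remained after the tagged ribosomes were pulled down, so it is a bulk sample of neurons and glia depleted of GnRH neuron RNA. Adults were in diestrus per the labels' protocols, and the series text calls the young mice prepubertal. Strain, exact ages and the DHT dose are not given in the sources used here. The labels number the replicates as biological without saying whether each was 1 animal or a pool, so each p-value reflects only the spread among these libraries, which may be technical.

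The preoptic area holds the cell bodies of most GnRH neurons and many of the neurons that feed into them, including cells that release kisspeptin, galanin, neurotensin and other peptides and cells that release GABA or glutamate. Between the juvenile stage and adulthood its oligodendrocytes complete myelination and its sex steroid-sensitive circuits mature. In rodents, prenatal androgen excess is used to model reproductive features of polycystic ovary syndrome, among them altered steroid feedback onto GnRH neurons.

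The libraries held 28136004 to 55479453 counts each, and replicates correlated closely, with a median within-group Pearson r across genes of 0.981 in adult DHT, 0.985 in adult vehicle, 0.981 in young DHT and 0.981 in young vehicle mice. Preoptic genes were present throughout: Gal, the galanin precursor, was at 42.03 CPM (counts scaled to a common library total) or more and Pgr, the progesterone receptor, at 19.5 CPM or more in every library. The summed level of the pituitary markers reached at most 1.87 CPM. One library stood apart: adult DHT replicate 4 had 2409 CPM of summed meningeal fibroblast markers (12 genes tested), against 164 to 313 CPM in the other adult DHT libraries. Adult vehicle replicate 4 had 696 CPM of the same markers. Young libraries varied as well, at 59.7 to 1023 CPM in young DHT and 112 to 502 CPM in young vehicle mice. In addition, 5 libraries (young DHT replicates 4, 5 and 6 and young vehicle replicates 5 and 6) carry sample numbers among the last 10 of the series. The labels do not call these a batch, but all are young, so every adult-over-young value below compares them with adults of other numbers. The main counts and the leading lists without these libraries are given below with their values. Maturation calls were rerun without them gene by gene only for the largest shared rises and falls and for a set of reproductive genes. That set was Kiss1, Kiss1r, Gnrh1, Esr1, Pgr, Cyp19a1, Gal, Tac2, Pdyn and Mkrn3. Calls lost among these genes are given below with their values. Whether the maturation calls of other named genes hold without these libraries was not checked.

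With all libraries in the main fit, a majority of the genes called for maturation in DHT mice were also called in vehicle mice, in the same direction. Of 16286 genes tested with edgeR's quasi-likelihood test, 3248 (19.9%) passed an adjusted p of 0.05 for adult over young in DHT mice, 1542 higher (9.47%) and 1706 lower in adults (10.5%). In vehicle mice 3301 (20.3%) passed, 1641 higher (10.1%) and 1660 lower (10.2%). Both lists held 1830 genes (11.2% of those tested), which was 56.3% of the DHT list and 55.4% of the vehicle list, and all 1830 had the same direction, 708 higher (4.35%) and 1122 lower in adults (6.89%). The 2 comparisons share no library, and across all tested genes their log2 changes had a Pearson r of 0.658, as a description over genes of these libraries. Among 10018 genes with at least 10 CPM in 1 or more groups r was 0.80. Of the 1418 genes called in DHT mice alone (8.71% of those tested), 94.8% had the same sign in vehicle mice, and of the 1471 called in vehicle mice alone (9.03%), 92.9% had the same sign in DHT mice. The shares depended on the libraries: without the last 10 sample numbers 1121 genes were called in DHT mice, 75.6% of them also in vehicle mice, and 3774 in vehicle mice, 22.5% of them also in DHT mice. With each library left out, the share of the DHT list ran from 44.5% (without adult vehicle replicate 3) to 70.0% (without young DHT replicate 4). That of the vehicle list ran from 44.4% (without young DHT replicate 4) to 62.6% (without young vehicle replicate 2). With a term for replicate number, the share of the DHT list was 48.7%.

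**Figure D1:**
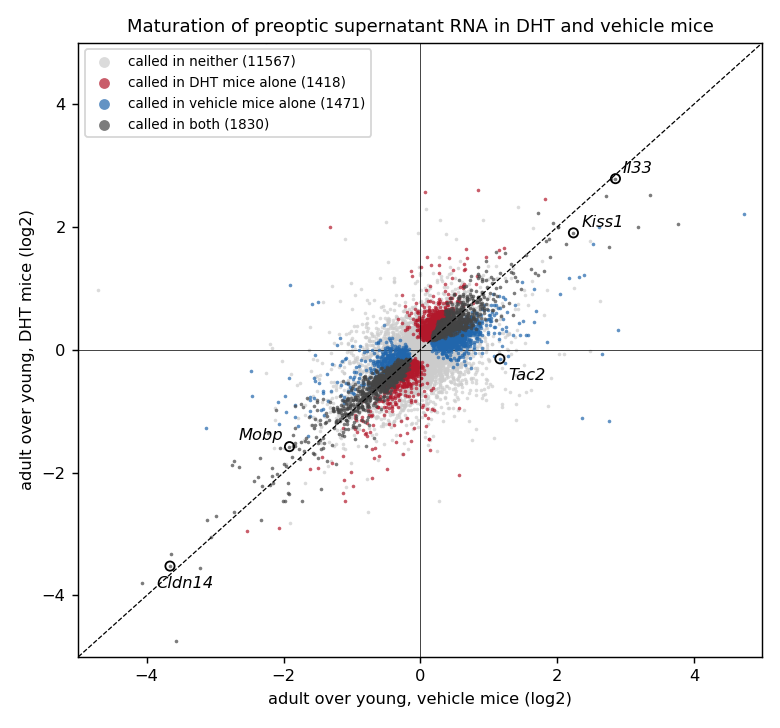
Adult-over-young log2 change of each tested gene in DHT mice (vertical axis) against vehicle mice (horizontal axis), coloured by the comparison in which it passed an adjusted p of 0.05. The dashed line marks equal change, 6 genes lie outside the plotted range, and genes called in both treatments lie along the line, whereas Tac2 lies near the horizontal axis.

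The shared rises described here are the largest among genes called in both treatments, at 5 CPM or more in the highest group. Their adult and young libraries also had to be separate within each treatment, which left out Kiss1, described below. The largest of these rises was that of Il33 on chromosome 19, which encodes an alarmin cytokine made by glia. Il33 was at 57.6 to 118 CPM in adult DHT libraries (median 76.6), at 88.8, 58.8, 66.0, 71.0 and 78.3 CPM in adult vehicle libraries, at 8.36 to 14.9 CPM in young DHT libraries (median 11.8) and at 6.94 to 12.2 CPM in young vehicle libraries (median 9.86). No adult library overlapped a young one, which the naming rule required within each treatment, whereas DHT and vehicle libraries of the same stage overlapped. The rise was 2.79 ± 0.18 log2 units (SE) in DHT mice and 2.85 ± 0.19 in vehicle mice, and the interaction was -0.07 with a 95% interval of -0.58 to 0.44. Serpinb1a, a neutrophil elastase inhibitor, rose by 2.51 in DHT and 2.71 in vehicle mice, and Tnfaip6, a hyaluronan-binding protein, by 2.06 and 1.93. Neat1, the nuclear RNA of paraspeckles, rose by 1.72 in DHT and 2.12 in vehicle mice. Rab37, a small GTPase of secretion, rose by 1.27 and 1.32, and Olfml1, which encodes an olfactomedin-like protein, by 1.24 and 1.35. Rasgrp3, an activator of Ras, rose by 1.28 and 0.95, and Hapln2, a link protein at nodes of Ranvier, by 1.19 and 1.04. All 8 had interaction intervals that included 0, but requiring a call and separate stages in both treatments favours such genes.

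By the same rule, the largest shared falls included that of Cldn14, a tight-junction claudin on chromosome 16. Cldn14 was at 0.162 to 0.673 CPM in adult DHT libraries (median 0.480), at 0.758, 0.334, 0.691, 0.526 and 0.252 CPM in adult vehicle libraries, at 4.75 to 6.94 CPM in young DHT libraries (median 5.19) and at 5.33 to 7.45 CPM in young vehicle libraries (median 6.28). The stages were separate in both treatments, as the rule required, and the change was -3.52 ± 0.25 in DHT and -3.66 ± 0.26 in vehicle mice. Mkrn3, the imprinted ubiquitin ligase whose loss causes precocious puberty in humans, fell to 1.45 to 3.09 CPM in adult DHT libraries, against 8.24 to 12.3 CPM in young DHT libraries, a change of -2.14 ± 0.18. In vehicle mice Mkrn3 was at 1.41 to 2.42 CPM in adults and 9.11 to 14.8 CPM in young, a change of -2.44 ± 0.19, and its interaction was 0.30 with a 95% interval of -0.22 to 0.82. Prom1, a membrane protein of progenitor and ependymal cells, changed by -2.23 in DHT and -2.32 in vehicle mice. Cnksr3, a scaffold of Ras and sodium channel signalling, changed by -1.91 and -2.65 and had an interaction of 0.75 ± 0.28 (unadjusted p = 0.0123, adjusted p 0.875). The other 4 of the 8 falls named by this rule were genes of red blood cells: Hbb-b2, Beta-s, Hba-a2 and Alas2. The summed blood markers were at 8.39 to 23.5 CPM in adult DHT, 11.1 to 31.5 in adult vehicle, 49.9 to 89.3 in young DHT and 34.99 to 155 CPM in young vehicle libraries. Hba-a2 was no longer called without the last 10 sample numbers, at -1.95 in DHT mice (adjusted p 0.0785 by edgeR) and -1.75 in vehicle mice (adjusted p 0.0551). Globin copies are nearly identical, so the split of reads among them is uncertain.

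No gene passed the threshold for the interaction with all libraries. edgeR called 0 of 16286 genes (0%), with a smallest adjusted p of 0.875. At an unadjusted p below 0.05 there were 888 genes (5.45%), 407 positive (2.5%) and 481 negative (2.95%). Leaving out the last 10 sample numbers gave 4 calls, and leaving out 1 library, adult DHT replicate 6, gave 1, as described at the end. DESeq2 also called 0 genes, with 1068 at an unadjusted p below 0.05, and limma voom called 0, with 1509. The 95% interval of the interaction lay within -1 to 1, a change of less than 2-fold either way, for 12550 genes (77.1%), and within -0.5 to 0.5 for 6714 genes (41.2%). The median standard error was 0.19 log2 units, and differences in maturation that lie within a gene's interval are not excluded for that gene. Among the 1830 genes called in both treatments, 1703 (93.1%) had an interval within -1 to 1, and the median absolute change was 0.44 in DHT and 0.46 in vehicle mice. Requiring a call in both treatments favours such likeness. Genes called in vehicle mice had a median change of 0.46 there and 0.33 in DHT mice, signed by the vehicle change. Genes called in DHT mice had 0.42 there and 0.34 in vehicle mice, signed by the DHT change. A choice by 1 treatment favours larger values in that treatment.

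The 8 genes per direction with the smallest interaction p are described here, and none passed the adjustment (each adjusted p was 0.875 by edgeR). On the negative side, Tac2 encodes the precursor of neurokinin B, a peptide that excites kisspeptin neurons. Tac2, on chromosome 10 (GRCm38, chr10:127724478-127731768, plus strand), was at 6.82 to 13.5 CPM in adult DHT libraries (median 10.1) and at 8.02, 22.9, 15.3, 15.3 and 18.7 CPM in adult vehicle libraries. It was at 8.13 to 15.05 CPM in young DHT libraries (median 11.01) and at 4.92 to 9.71 CPM in young vehicle libraries (median 6.52). Adult vehicle libraries other than replicate 1 lay above all adult DHT libraries, and all young DHT libraries lay above the young vehicle median. Adult over young, Tac2 was at -0.15 ± 0.22 log2 units in DHT mice (adjusted p 0.676 by edgeR) and rose by 1.16 ± 0.23 in vehicle mice (adjusted p 0.00104). Its interaction was -1.31 ± 0.32 with a 95% interval of -1.97 to -0.65 (unadjusted p = 0.000425). Without the last 10 sample numbers the Tac2 interaction was -1.56.

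Aldh1l2, a mitochondrial enzyme of folate metabolism, had an interaction of -1.03 ± 0.23. It was at 2.13 to 3.59 CPM in adult DHT libraries, at 5.01, 4.13, 3.21, 5.26 and 4.76 CPM in adult vehicle libraries, at 3.05 to 3.97 CPM in young DHT libraries and at 1.80 to 3.21 CPM in young vehicle libraries. Adult DHT and adult vehicle libraries overlapped by 1 vehicle library, replicate 3, and young DHT and young vehicle libraries overlapped between 3.05 and 3.21 CPM. Nostrin, which traffics endothelial nitric oxide synthase, had an interaction of -1.143 ± 0.28 at levels near 1 CPM, and in it the change sat on the DHT side: -0.97 in DHT mice (adjusted p 0.00117 by edgeR) against 0.17 in vehicle mice. Akr1b3, the aldose reductase, had an interaction of -1.51 ± 0.41, with -0.94 in DHT and 0.57 in vehicle mice. The other 4 were Slc30a4, a zinc transporter (-0.62), Chsy3, a chondroitin sulfate synthase (-0.69), Hs6st2, a heparan sulfate sulfotransferase (-0.59), and Gabra5, a GABA-A receptor subunit (-0.47). These 4 rose in vehicle mice, by 0.45 to 0.72, and their values in DHT mice ran from -0.17 to 0.14 with none called.

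On the positive side Luzp1, an actin- and centrosome-associated leucine zipper protein, had the smallest p, 0.000248, and an interaction of 0.46 ± 0.11. It was at 54.7 to 61.7 CPM in adult DHT libraries, at 55.4, 47.6, 49.8, 58.2 and 52.3 CPM in adult vehicle libraries, at 45.2 to 58.5 CPM in young DHT libraries and at 56.2 to 72.6 CPM in young vehicle libraries. The 4 groups overlapped, and the highest library was a young vehicle one. Cdkn1b, the cell-cycle inhibitor p27, had an interaction of 0.60 ± 0.16 and Oas1c, of the interferon-induced oligoadenylate synthetase family, 0.93 ± 0.25. Both fell in vehicle mice, Cdkn1b by 0.44 and Oas1c by 0.53, and were not called in DHT mice, at 0.15 and 0.40. Ier5, an immediate early response gene (0.56), Tshz3, a zinc finger transcription factor (0.84), and Ogdhl, a relative of the oxoglutarate dehydrogenase subunit (0.70), rose in DHT mice by 0.33 to 0.50 and were not called in vehicle mice, at -0.33 to -0.23. Otx2, a homeobox transcription factor (0.93), and Midn, a nuclear protein that delivers substrates to the proteasome (0.83), were called in neither treatment.

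**Figure D2:**
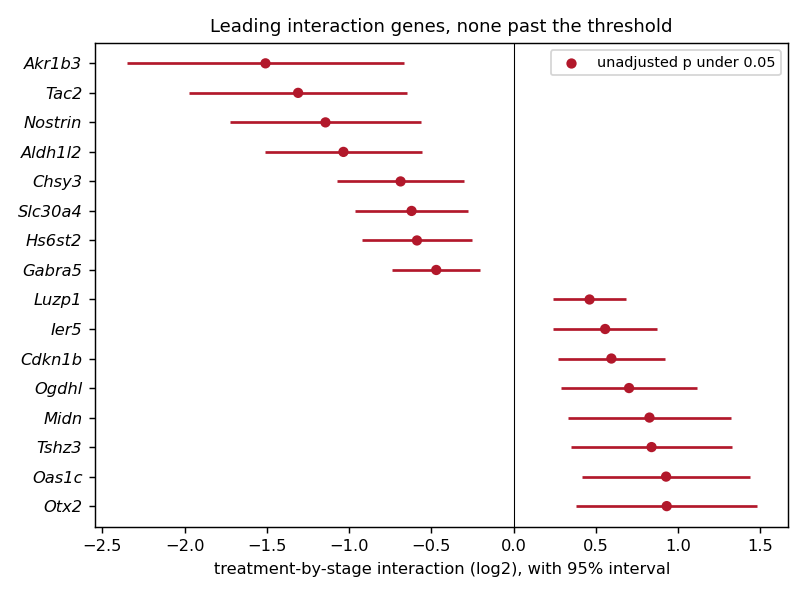
Treatment-by-stage interaction (log2, horizontal axis) of the 16 genes with the smallest interaction p, 8 per direction, with points for estimates and lines for 95% intervals. The estimates run from -1.51 for Akr1b3 to 0.93 for Otx2 and Oas1c, and none passed an adjusted p of 0.05.

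Genes for neuropeptide precursors, in a list that also holds the binding protein Crhbp, leaned to one side. Of 29 tested members, 26 had an interaction below 0, against 49.8% of all tested genes, and their median interaction was -0.60, against 0.0013 for all tested genes. At an unadjusted p below 0.05, 9 of the 29 were negative and 0 positive, against 2.95% and 2.5% of all tested genes. None passed the adjustment. In DHT mice 3 members rose and 1 fell with maturation (median change 0.11 over the list, 0.01 over all tested genes), and in vehicle mice 12 rose and 0 fell (median 0.58, against 0.01), where 9.47% and 10.1% of all tested genes rose. With each library left out 1 to 3 rose in DHT mice, with 1 without adult DHT replicate 1 or 3 or young DHT replicate 1 or 4, and 8 to 14 in vehicle mice. Both stages contributed: within adults the median DHT-over-vehicle difference of the list was -0.28, with 23 of 29 below 0, and within young mice it was 0.28, with 24 of 29 above 0.

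Besides Tac2 the 9 were Nts, Gal, Pdyn, Penk, Adcyap1, Crhbp, Prok2 and Npy, most of them named after their values were seen. Nts, the precursor of neurotensin, a peptide that acts on GnRH neurons and on dopamine circuits, was at 45.9 to 61.5 CPM in adult DHT libraries (median 55.2) and at 52.4, 72.8, 56.6, 66.8 and 96.4 CPM in adult vehicle libraries. Nts was at 35.5 to 49.7 CPM in young DHT libraries (median 46.3) and at 23.4 to 47.8 CPM in young vehicle libraries (median 31.9). Every adult vehicle library lay above every young vehicle library, whereas the DHT stages overlapped. Adult over young, Nts was at 0.29 log2 units in DHT mice (adjusted p 0.17 by edgeR) and rose by 0.99 in vehicle mice, with an interaction of -0.71 ± 0.21.

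The promoters of Tac2 and Nts are shown because these genes had the smallest interaction p of the peptide list; both sequences are RefSeq's (GRCm38.p6), 5′ to 3′ on the gene's strand, and stop before the annotated first exon. Capitals mark TGACG, the core of the cyclic AMP response element (read as CGTCA on the other strand), an element known from many peptide genes.
Tac2, chr10:127724228-127724477, plus strand: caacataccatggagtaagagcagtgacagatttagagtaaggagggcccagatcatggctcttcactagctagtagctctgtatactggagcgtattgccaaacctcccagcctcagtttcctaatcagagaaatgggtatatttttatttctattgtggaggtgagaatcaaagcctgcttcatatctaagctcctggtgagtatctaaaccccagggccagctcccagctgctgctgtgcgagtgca
Nts, chr10:102490487-102490668, minus strand: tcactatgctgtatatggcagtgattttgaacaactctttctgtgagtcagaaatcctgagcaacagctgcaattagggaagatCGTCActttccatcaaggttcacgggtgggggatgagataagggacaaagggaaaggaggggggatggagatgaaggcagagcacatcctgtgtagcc
The Tac2 window held no TGACG on either strand and the Nts window held 1. Over the 250 bases before each RefSeq start, 11 of 25 peptide genes that matched the table (of 30 listed) held TGACG on either strand, 44%, against 19.8% of all 27025 genes. The full palindrome TGACGTCA, which contains the core, was in 2 of the 25 (Cartpt and Sst), 8%, against 1.77% of all genes. These matches describe letters in a short window and do not mark bound sites.

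Pdyn, the precursor of dynorphin, which inhibits kisspeptin neurons, rose in both treatments, by 0.54 in DHT and 1.18 in vehicle mice, with an interaction of -0.64 ± 0.26. The rise in DHT mice was no longer called without the last 10 sample numbers (0.67, adjusted p 0.0698 by edgeR), nor when any 1 of 6 libraries was left out (adult DHT replicates 1 to 4, young DHT replicates 1 and 4). Pdyn was at 12.2 to 21.99 CPM in adult DHT libraries, 12.5 to 23.1 in adult vehicle, 7.92 to 14.8 in young DHT and 6.24 to 11.3 CPM in young vehicle libraries. The adult groups covered nearly the same range, and the young DHT median of 13.1 CPM lay above every young vehicle library. Penk, the enkephalin precursor, was at 188 to 407 CPM in adult DHT, 253 to 433 in adult vehicle, 192 to 345 in young DHT and 146 to 277 CPM in young vehicle libraries. Its adult-over-young value was 0.26 in DHT mice, not called, and it rose by 0.87 in vehicle mice, with an interaction of -0.60. Gal was at 52.7 to 97.6 CPM in adult DHT, 80.3 to 134 in adult vehicle, 56.7 to 102 in young DHT and 42.03 to 88.1 CPM in young vehicle libraries, and its interaction was -0.74 ± 0.27.

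Adcyap1, the precursor of the peptide PACAP, Crhbp, which binds and sequesters corticotropin-releasing hormone, and Prok2, an output peptide of the circadian clock, had interactions of -0.69, -0.69 and -0.63. Each rose in vehicle mice, by 0.61, 0.54 and 0.70, and none was called in DHT mice. Npy, the precursor of neuropeptide Y, differed from the rest: it fell by 1.23 in DHT mice and was not called in vehicle mice, at -0.39. Npy was at 4.07 to 10.6 CPM in adult DHT, 6.08 to 14.8 in adult vehicle, 8.89 to 29.5 in young DHT and 9.37 to 16.4 CPM in young vehicle libraries. The 3 peptide genes with an interaction above 0 were Pomc (0.82), Ucn3 (0.51) and Gnrh1 (0.03), and each of their 95% intervals included 0.

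**Figure D3:**
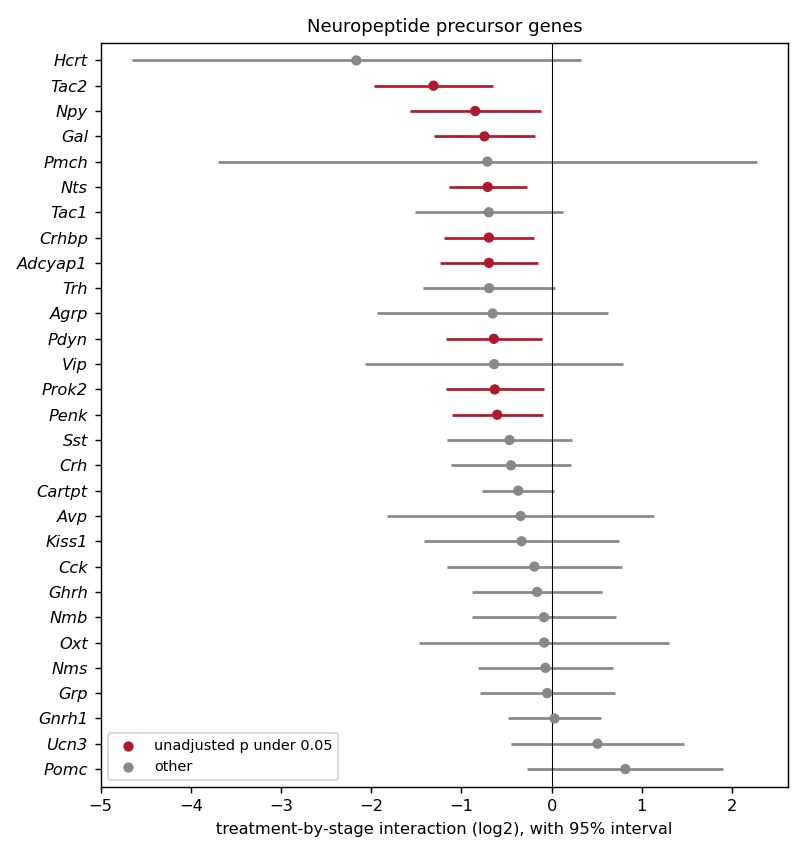
Treatment-by-stage interaction (log2, horizontal axis) of the 29 tested genes of the neuropeptide precursor list, with 95% intervals, red where the unadjusted p was below 0.05. The list includes Crhbp, a binding protein. Of the 29 estimates 26 lie below 0, and 9 have intervals that do not reach 0.

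The lean of the peptide list was present under every alternative run, with the median between -0.69 and -0.40 when each library was left out in turn and 8 to 13 negative members at an unadjusted p below 0.05. Without adult DHT replicate 4 and adult vehicle replicate 4 the median was -0.42, with 8 such members. Without the last 10 sample numbers it was -0.49, with 10 such members, and 0 members rose in DHT mice against 16 in vehicle mice. Sample numbers moved with the peptides: their summed level was at 1130 to 1587 CPM in the young DHT libraries of the last 10 numbers, against 766 to 1401 CPM in the other young DHT libraries, and at 1046 to 1710 CPM, against 656 to 1062 CPM, in young vehicle mice. Marker lists of other regions did not all go the same way. Over 10 cortical and hippocampal markers the median interaction was 0.18, with 2 below 0, and it ran from -0.096 to 0.38 with each library left out. Markers of the suprachiasmatic nucleus and of the striatum had medians below 0. The median interaction was -0.35 over 10 suprachiasmatic nucleus markers, 9 of them below 0, but 4 of the 10 (Vip, Avp, Prok2 and Nms) are also in the peptide list, and over the other 6 it was -0.33, with 5 below 0. Over the 10 it ran from -0.57 to -0.031 with each library left out, the last without adult vehicle replicate 2. Over 10 striatal markers, none of them in the peptide list, the median was -0.31, with 7 below 0. The summed striatal markers ranged from 365 to 1503 CPM in adult DHT, 813 to 1504 in adult vehicle, 1016 to 1502 in young DHT and 646 to 1875 CPM in young vehicle libraries. The summed suprachiasmatic markers ranged from 196 to 479 CPM in adult DHT, 246 to 476 in adult vehicle, 145 to 372 in young DHT and 134 to 461 CPM in young vehicle libraries. The part of dissection and of sample numbers in these results was not tested. In bulk samples fewer cells of a type and less RNA per cell cannot be told apart.

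**Figure D4:**
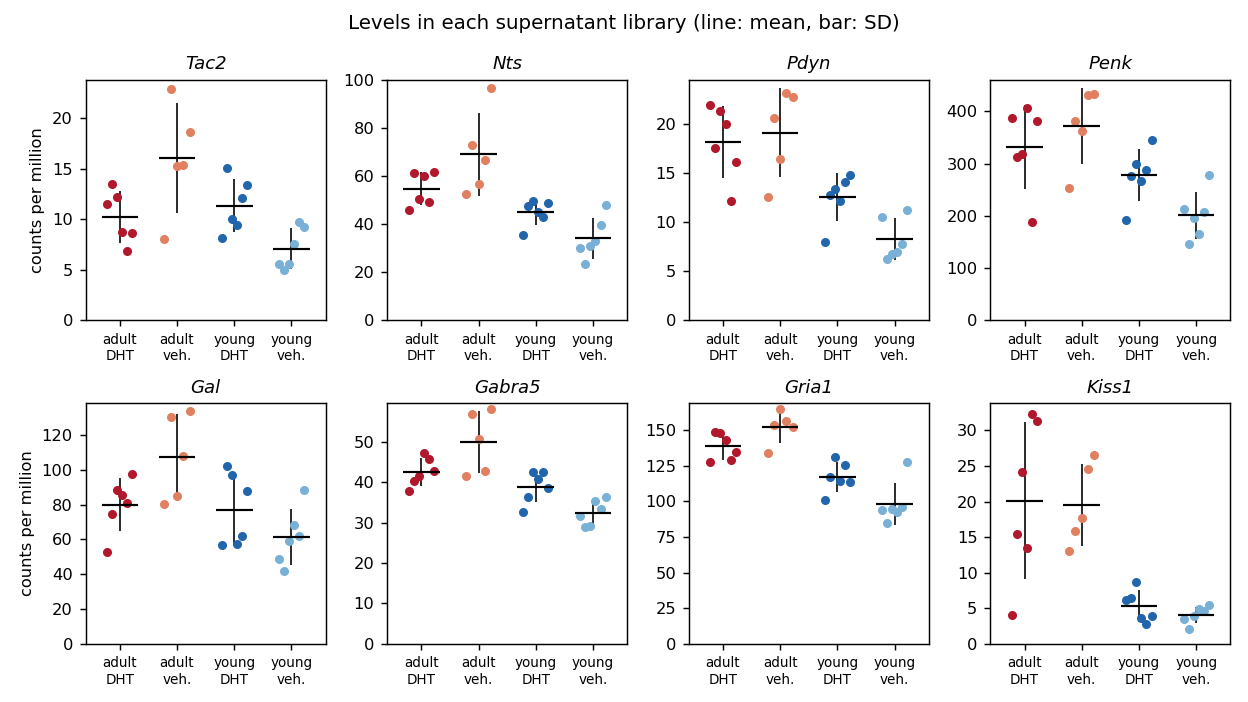
Level in CPM (vertical axis, from 0) of 8 genes in each library of adult DHT, adult vehicle, young DHT and young vehicle mice, with group means as lines and SD as bars. For Tac2, Nts, Gal, Gabra5 and Gria1 the step between adult and young is smaller in DHT than in vehicle mice, and for Kiss1 adult means lie well above young means in both treatments.

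Receptor genes for the fast transmitters leaned the same way. Of 25 genes of the GABA system 19 had an interaction below 0 (median -0.21), 8 of them at an unadjusted p below 0.05 and 0 positive ones, against 2.95% and 2.5% of all tested genes. In DHT mice 5 rose and 0 fell with maturation, where 9.47% of all tested genes rose, and in vehicle mice 15 rose and 0 fell, where 10.1% rose. The count in DHT mice was 4 to 10 with each library left out (8 without young DHT replicate 2 and 10 without young DHT replicate 3), and that in vehicle mice 12 to 16. The 8 included Gabra2, Gabra5, Gabrb1, Gabrg3 and Gabrd, subunits of the ionotropic GABA-A receptor, and Gabbr2 of the metabotropic GABA-B receptor. Gabra5 was at 38.0 to 47.4 CPM in adult DHT libraries (median 42.2), at 41.7, 56.9, 50.9, 42.8 and 58.1 CPM in adult vehicle libraries, at 32.6 to 42.7 CPM in young DHT libraries (median 39.8) and at 28.9 to 36.4 CPM in young vehicle libraries (median 32.5). The stages were separate in vehicle mice and overlapped in DHT mice. Its adult-over-young value was 0.13 in DHT mice (adjusted p 0.312 by edgeR), and it rose by 0.60 in vehicle mice. Among the genes that make and package GABA, the synthetic enzymes Gad1 and Gad2 had interactions of 0.29 ± 0.21 and 0.25 ± 0.22, and Slc32a1, the vesicular transporter, -0.20 ± 0.23. Members that rose in both treatments included Gabra3, by 0.55 in DHT and 0.71 in vehicle mice, and Slc12a5, the chloride exporter KCC2 that makes GABA inhibitory, by 0.43 and 0.54.

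Of 27 genes of the glutamate system 26 had an interaction below 0 (median -0.22), 6 of them at an unadjusted p below 0.05 and 0 positive ones, against 2.95% and 2.5% of all tested genes. In DHT mice 4 rose and 1 fell with maturation, against 9.47% and 10.5% of all tested genes, and in vehicle mice 12 rose and 0 fell, against 10.1% and 10.2%. With each library left out the rises in DHT mice numbered 1 to 5 (1 or 2 without adult DHT replicate 2, 3, 4 or 6 or young DHT replicate 1, 4, 5 or 6) and those in vehicle mice 10 to 14. The 6 were the AMPA receptor subunits Gria1, Gria2 and Gria4, the kainate subunit Grik1, the delta receptor Grid1 and the metabotropic receptor Grm7. Gria1 was at 128 to 149 CPM in adult DHT libraries (median 139), at 134, 153, 165, 156 and 152 CPM in adult vehicle libraries, at 101 to 131 CPM in young DHT libraries (median 115) and at 84.9 to 128 CPM in young vehicle libraries (median 94.2). Gria1 rose in both treatments, by 0.25 in DHT and 0.60 in vehicle mice, with an interaction of -0.36 ± 0.12. Grm7 was at 0.13 in DHT mice, not called, and rose by 0.69 in vehicle mice, with an interaction of -0.56 ± 0.17. All 27 estimates of young DHT over young vehicle were above 0, with a median of 0.19, and 22 of the 27 estimates of adult DHT over adult vehicle were below 0, with a median of -0.08.

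With each library left out in turn, the GABA median stayed between -0.32 and -0.11 and the glutamate median between -0.28 and -0.18, with 5 to 9 and 6 to 9 negative members at an unadjusted p below 0.05. The 5 were found without young DHT replicate 3. Without the last 10 sample numbers the medians were -0.46 and -0.31. The summed GABA genes were lower in the young libraries of those numbers, at 2180 to 2733 CPM in young DHT mice against 3289 to 3866 CPM in the other young DHT libraries, and at 2480 to 2980 CPM against 2864 to 3544 CPM in young vehicle mice. The median interaction was -0.10 over 29 sodium, calcium and HCN channel genes. The negative members at an unadjusted p below 0.05 numbered 4 (Cacna1b, Cacna1e, Cacna2d1 and Cacna2d3, all of calcium channels), against 2.95% of all tested genes. This count was 1 or 2 without adult vehicle replicate 2, 3, 4 or 5, young DHT replicate 3 or 5 or young vehicle replicate 2 or 4, and 7 without young vehicle replicate 6. The median was -0.10 over 33 potassium channel genes, with 0 at that level in either direction. Among 25 synaptic vesicle genes the median was 0.12, with 1 positive member.

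**Figure D5:**
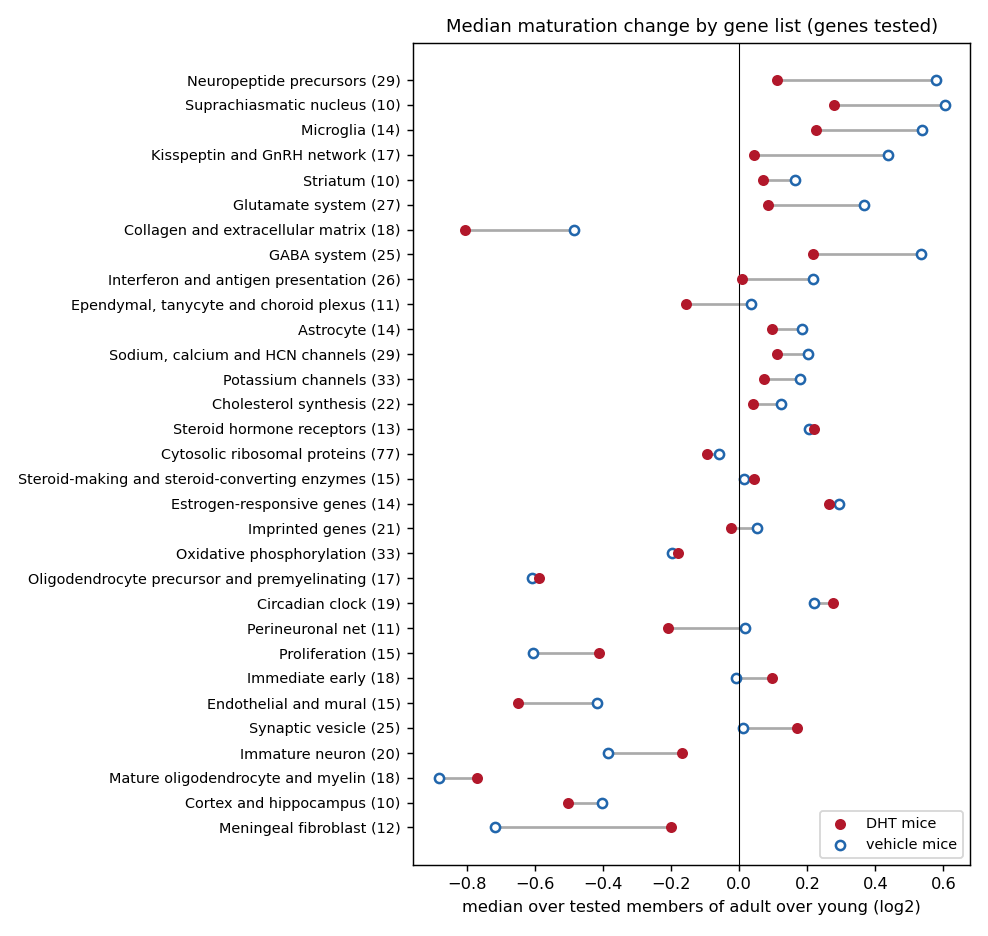
Median adult-over-young log2 change (horizontal axis) over the tested members of each gene list, in DHT mice (filled) and vehicle mice (open), with the number of genes tested in brackets. The widest gap of all is that of the meningeal fibroblast list (-0.20 in DHT and -0.72 in vehicle mice), with 0 of 12 members called in either treatment. The widest gaps among lists of neuronal genes are those of the neuropeptides (0.11 in DHT and 0.58 in vehicle mice) and the kisspeptin and GnRH network (0.04 and 0.44), while oligodendrocyte and circadian lists nearly coincide. The neuropeptide and kisspeptin lists are not separate, as both hold Tac2, Pdyn, Gal, Kiss1, Tac1 and Gnrh1.

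Genes of the oligodendrocyte lineage fell with maturation in both treatments. Of 18 myelin genes, 2 rose and 12 fell in DHT mice and 2 rose and 13 fell in vehicle mice, with medians of -0.77 and -0.88. Of all tested genes 10.5% fell in DHT and 10.2% in vehicle mice, and the myelin falls numbered 12 and 12 to 13 with each library left out. Mobp, a structural myelin protein, was at 139 to 287 CPM in adult DHT, 140 to 225 in adult vehicle, 464 to 697 in young DHT and 567 to 740 CPM in young vehicle libraries, with changes of -1.58 in DHT and -1.91 in vehicle mice. No adult library overlapped a young one. Cnp, the myelin enzyme CNPase, changed by -0.85 and -1.32 and was the 1 member with an unadjusted interaction p below 0.05 (0.47 ± 0.19). All 18 interactions were above 0 (median 0.16), but without the last 10 sample numbers 10 of 18 were below 0 (median -0.05), and without adult DHT replicate 1 the median was -0.039. With each other library left out it was above 0, up to 0.29. The summed myelin markers were highest in adult DHT replicate 1 among adults, at 5562 CPM, against 2555 to 3563 CPM in the other adult DHT libraries. Of 17 genes of oligodendrocyte precursors and premyelinating cells, 0 rose and 11 fell in DHT mice and 0 rose and 12 fell in vehicle mice, and the median interaction was -0.01. Among them Gpr17, a receptor of cells about to myelinate, changed by -1.68 in DHT and -1.57 in vehicle mice. Fyn, a kinase of early myelination, changed by -0.48 and -0.47, with an interaction interval of -0.14 to 0.13.

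Genes of immature neurons fell in part: of 20, 6 fell in DHT mice and 8 in vehicle mice, with none higher, against falls of 10.5% and 10.2% of all tested genes. With each library left out 4 to 7 fell in DHT mice, the 4 without adult DHT replicate 2. The median interaction was 0.15, with 3 positive members at an unadjusted p below 0.05, against 2.5% of all tested genes. This count was 1 without adult vehicle replicate 3, 4 or 5 or young DHT replicate 5, and 5 without young vehicle replicate 6. The 3 were the tubulins Tubb3 (0.38), Tubb2a (0.34) and Tuba1a (0.49), which fell in vehicle mice by 0.42 to 0.55 and had values of -0.09 to -0.06 in DHT mice. Tuba1a is an alpha-tubulin gene, so the limit given below for Tuba1c, of reads moved between near-identical copies, applies to it too. Of 33 nuclear genes of oxidative phosphorylation 2 rose and 15 fell in DHT mice and 1 rose and 13 fell in vehicle mice, against the same 10.5% and 10.2% for falls. With each library left out 10 to 18 fell in DHT and 7 to 18 in vehicle mice, the 7 without adult vehicle replicate 3. Their median interaction was -0.01 and every interval lay within -1 to 1, although 5 members had a positive interaction at an unadjusted p below 0.05, at 0.22 to 0.31, against 2.5% of all tested genes. This count was 3 without adult vehicle replicate 4 or young vehicle replicate 3 and 8 without young DHT replicate 1 or young vehicle replicate 6. Of 19 circadian clock genes 8 rose and 0 fell in each treatment, with a median interaction of 0.01, where 9.47% of all tested genes rose in DHT and 10.1% in vehicle mice. With each library left out the rises numbered 5 to 10 in DHT mice (5 without adult DHT replicate 2 or young DHT replicate 4) and 4 to 8 in vehicle mice (4 without adult vehicle replicate 3, and 5 without adult vehicle replicate 2 or young vehicle replicate 4). Bhlhe40, a repressor of the clock, rose by 0.64 in DHT and 0.37 in vehicle mice. Of 14 microglial genes 12 had an interaction below 0 (median -0.33), with 0 at an unadjusted p below 0.05. Of 15 proliferation genes 5 fell in DHT and 6 in vehicle mice, 5 to 6 and 5 to 7 with each library left out, and 2 rose in each, with a median interaction of 0.05. The rises numbered 0 to 2 in DHT and 1 to 2 in vehicle mice with each library left out, against 9.47% and 10.1% of all tested genes. Among 77 cytosolic ribosomal protein genes the median was -0.05, with 0 members at an unadjusted p below 0.05.

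Several reproductive genes rose with maturation in both treatments. Kiss1, the kisspeptin precursor on chromosome 1, was at 4.06 to 32.3 CPM in adult DHT libraries (median 19.8), at 12.997, 15.8, 17.7, 24.5 and 26.5 CPM in adult vehicle libraries, at 2.79 to 8.72 CPM in young DHT libraries (median 5.05) and at 2.103 to 5.38 CPM in young vehicle libraries (median 4.22). The vehicle stages were separate, and 1 adult DHT library, replicate 1, lay within the young DHT range. Kiss1 rose by 1.90 ± 0.37 in DHT and 2.24 ± 0.38 in vehicle mice. Its interaction was -0.33 with a 95% interval of -1.41 to 0.74, so differences within that interval are not excluded. Without the last 10 sample numbers the Kiss1 interaction was -0.92 and the rise in DHT mice, 1.49, was no longer called. Gnrh1, left over in the depleted supernatant, rose by 0.51 in DHT mice and was at 0.47 in vehicle mice (adjusted p 0.0647 by edgeR), and the sign of its interaction of 0.03 turned with the fit. The rise in DHT mice was not called without the last 10 sample numbers (0.51, adjusted p 0.126 by edgeR), with a term for them (0.56, adjusted p 0.0701), or when any 1 of 8 libraries was left out (adult DHT replicates 1, 3, 5 and 6, young DHT replicates 1, 2, 4 and 5).

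Pgr rose by 0.22 in DHT and 0.31 in vehicle mice, with an interaction interval of -0.32 to 0.13. The Pgr rise in DHT mice was not called without the last 10 sample numbers (0.20, adjusted p 0.218 by edgeR), with a term for them (0.17, adjusted p 0.182), or when any 1 of 10 libraries was left out (adult DHT replicates 2, 3, 5 and 6, young DHT replicates 1, 4, 5 and 6, young vehicle replicates 1 and 2). Esr1, estrogen receptor alpha, had adult-over-young values of 0.52 and 0.63 and passed in neither, and its interaction was -0.11 (-0.76 to 0.54). Srd5a1, the enzyme that makes DHT from testosterone, fell by 0.92 in DHT and 0.98 in vehicle mice, with an interaction of 0.06 (-0.30 to 0.41). Greb1, an estrogen-induced gene, rose by 1.25 and 1.68, with an interaction of -0.43 (-1.56 to 0.71). Calcr, the calcitonin receptor, which marks a set of preoptic neurons, was at -0.05 in DHT mice and rose by 0.80 in vehicle mice, and its interaction was -0.85 ± 0.30 (unadjusted p = 0.0101, adjusted p 0.875). Kiss1r, the kisspeptin receptor, had an interaction of -0.35 ± 0.16 and was called in neither treatment. Cyp19a1, the aromatase, stayed below 0.75 CPM in every library and had an interaction of -1.06 ± 0.43. Of 13 steroid receptor genes 5 rose in DHT and 4 in vehicle mice with none lower, where 9.47% and 10.1% of all tested genes rose. The count in DHT mice was 2 or 3 without adult DHT replicate 2, 3, 5 or 6, young DHT replicate 1, 4, 5 or 6 or young vehicle replicate 1, and up to 7 otherwise, and that in vehicle mice 3 to 5. The median interaction was -0.08, and 0.0078 without adult DHT replicate 1 and 0.011 without young DHT replicate 3.

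Without the last 10 sample numbers, which left 3 young DHT and 4 young vehicle libraries, the interaction called 4 genes, all negative. They were Slc5a5, an iodide transporter (-0.91), Dnajc10, a chaperone of the endoplasmic reticulum (-0.86), Hs6st2 (-0.82) and Ssr1, a subunit of the translocon (-0.69). With all libraries these 4 had interactions of -0.50, -0.49, -0.59 and -0.38, and none passed. Slc5a5 was at 40.0, 54.5 and 49.6 CPM in young DHT replicates 1 to 3 and at 37.3, 32.7 and 36.4 CPM in replicates 4 to 6 of the last numbers. In young vehicle mice it was at 30.7, 27.9, 28.7 and 33.4 CPM in replicates 1 to 4 and at 47.2 and 39.1 CPM in replicates 5 and 6. The order of DHT and vehicle was thus opposite in the young libraries of the 2 sets of numbers. With a term for these numbers in the fit, 1919 genes were called in DHT and 3612 in vehicle mice, and the interaction called 0, with 958 at an unadjusted p below 0.05.

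A single library decided 1 further call. Without adult DHT replicate 6, Tuba1c, an alpha-tubulin gene, had an interaction of -4.76 ± 0.57 (adjusted p 0.000248 by edgeR), against -2.53 with all libraries. Tuba1c was at 0.392 to 1.25 CPM in 5 adult DHT libraries and at 15.997 CPM in replicate 6, and at 24.4, 27.5, 11.9, 7.54 and 18.5 CPM in adult vehicle libraries. It was at 0.320 to 0.942 CPM in young DHT and 0.334 to 1.43 CPM in young vehicle libraries. Alpha-tubulin genes are nearly identical in sequence, so the authors' counting could have moved reads between copies, and this level is uncertain. Within a stage, DHT against vehicle called 0 genes in adults, with 338 (2.08%) at an unadjusted p below 0.05, and 0 genes in young mice, with 747 (4.59%). DESeq2 called 0 in adults and 1 in young mice, and limma voom 1 and 0. Without the last 10 sample numbers 39 genes were called in young mice.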

How the data were processed

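Polyadenylated RNA was sequenced from preoptic punches after purification with the RNeasy Plus Micro kit and library preparation with SMARTer v4, a kit that does not mark strand, per the labels' protocols. The authors deposited 1 table of estimated counts per gene (23284 genes, 48 libraries). In it 98.49% of values were exactly whole, and all were rounded before testing. The submitters' processing notes list TopHat2 2.0.13, Bowtie2 2.2.1, HTSeq 0.6.1, Cufflinks, Cuffdiff 2.1.1 and DESeq2 1.14.1 with build mm10, but do not say which tool counted.

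The 23 supernatant libraries were fitted together in edgeR 4.0.16 (R 4.3.3) with 1 mean per group, TMM scaling, robust quasi-likelihood F tests and Benjamini-Hochberg adjustment over all 16286 genes that filterByExpr kept (minimum count 10, total 15). Genes were called at an adjusted p below 0.05. Fold changes are log2, CPM are counts scaled to the library total, and standard errors are the log2 value divided by the square root of F. Levels are not per gene length, so genes are not compared by level. Alternatives were DESeq2 1.42.0, limma 3.58.1 voom with sample weights, other scaling and filters, terms for sample or replicate number and left-out libraries. The scripts were tested on simulated counts.

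The question and the gene lists were chosen with earlier results of these data known. Genes named one by one are the 8 per direction with the smallest interaction p (at least 1 CPM), the 8 largest shared rises and falls (at least 5 CPM, stages not overlapping), the 6 with the smallest interaction p among those called in 1 treatment, leading members of each list, and reproductive genes, of which 1 is not reported here. Others are named after their values were seen. Predicted genes and RIKEN clones were counted and not named. Gene positions are from GENCODE M21 (GRCm38).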

Additional observations from a re-analysis of the deposited data

Results flagged for a closer look

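In 216 sets of values (41 genes and 13 marker sums in each of 4 groups), 23 had a highest or lowest library whose gap to the next, relative to the range, passed Dixon's 95% value. Chance flags about 1 in 20 such sets. No explanation was tested.

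Adult DHT replicate 4 was highest in summed meningeal fibroblast markers (2409 CPM, next 313) and in endothelial and mural markers (216 CPM, next 32.9), and adult vehicle replicate 4 in endothelial and mural markers (162 CPM, next 43.1). Adult DHT replicate 1 was highest for Tnfaip6 (14.3 CPM), Neat1 (45.0 CPM), Rasgrp3 (10.2 CPM) and summed myelin markers (5562 CPM), and adult vehicle replicate 1 for Rasgrp3 (8.02 CPM) and Alas2 (4.12 CPM). Adult DHT replicate 2 was highest for Ogdhl (40.8 CPM), adult DHT replicate 5 lowest in striatal markers (365 CPM), and adult vehicle replicate 2 lowest for Mkrn3 (1.41 CPM).

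Among young DHT libraries, replicate 2 was lowest for Olfml1 (1.79 CPM) and Hapln2 (6.78 CPM), and replicate 4 was highest for Cldn14 (6.94 CPM), Hba-a2 (31.4 CPM) and summed cortical markers (998 CPM). Replicate 3 was highest for Prom1 (6.96 CPM) and replicate 1 for summed myelin markers (7723 CPM). Among young vehicle libraries, replicate 6 was highest for Olfml1 (4.31 CPM) and summed microglial markers (131 CPM), replicate 3 for oligodendrocyte precursor markers (1332 CPM) and replicate 1 for striatal markers (1875 CPM).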

How the results depend on the processing

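The interaction called 0 genes under DESeq2, RLE scaling, limma voom, both filters, the replicate block, the term for the last 10 sample numbers and non-robust dispersions, and without replicate 4 of both adult groups, an alternative chosen after seeing the data. It called 4 without the last 10 sample numbers, and 0 to 1 with each library left out. The maturation count in DHT mice was 1919 with the term for these numbers and 1121 without them, and 2293 to 3789 with each library left out, against 2440 to 3611 in vehicle mice. The cause was not tested. DHT against vehicle in young mice called 1 gene with DESeq2 and 39 without the last 10 sample numbers. In adults it called 1 gene with limma voom and 0 to 1 with each library left out.

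Same-numbered libraries deviated with r of -0.14 to 0.35 (median 0.02) over 33 pairs, and 8 of 23 libraries correlated best with their own number, so the numbers were not taken to pair samples. With the replicate block the interaction called 0 genes (1669 at an unadjusted p below 0.05), maturation 4171 in DHT and 3662 in vehicle mice.

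Signs turned for small values. The Gnrh1 interaction was -0.059 with the replicate block and -0.079 without the last 10 sample numbers, and ran from -0.084 to 0.14 with each library left out. Esr1 ran from -0.21 to 0.042. The Gal change in DHT mice was -0.10 without those numbers and ran from -0.038 to 0.15, and that of Tac2 was 0.0043 with their term. Cyp19a1, which stayed below 1 CPM, had an interaction SE of 0.43 against a median of 0.19. Wide intervals were not confined to such genes, as that of Kiss1 above shows, and the part of depth was not tested.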
